A study of Homo sapiens with 6 samples.

Results

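The histone variants H3.3 and H2A.Z were compared gene by gene in HEK293T, an established human line of embryonic kidney origin that also expresses the large T antigen of SV40. H3.3 was taken from 1 list of 72287 peaks. H2A.Z was taken as the 37970 consensus peaks, which are peaks of the CST antibody that overlap a peak of the Abcam antibody by at least 1 bp. Each of 19451 protein-coding genes of at least 1 kb was classed by peaks within 1 kb of either annotated end. Both variants lay at an end of 11441 genes (58.8%). H3.3 without any peak of either H2A.Z antibody in the gene or within 5 kb of it was found at 189 genes (0.972%), and consensus H2A.Z without H3.3 over the same distance at 1158 (5.95%). These 12788 genes are the members of the classes called both, H3.3 only and H2A.Z only. A further 2940 genes had neither variant within 5 kb, and 3723 fell between the classes.

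All cells were unperturbed HEK293T, fixed in 1% formaldehyde for 10 min before sonication. The series also holds 1 library each for H4K16ac, the acetylation of histone H4 at lysine 16, and H3K79me2, the dimethylation of histone H3 at lysine 79, and an input library that is not used here. Each antibody has 1 library, so no value below has a replicate spread and no test was possible. The intervals are exact 95% intervals for shares and medians, they cover counting error only, and they say nothing of other cultures. As a check of the label, H3K79me2 lay at an end of 7 of 10 genes typical of embryonic kidney and HEK293T, among them LHX1, VIM and KRT18, where the share of all genes was 55.4%. GATA3, PAX2 and SALL2 lacked it. It lay at none of 5 blood genes and 3 muscle genes, at 1 of 3 liver genes (APOA1) and at 1 of 3 neuron genes (NEFL).

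H3.3 is a form of histone H3 that is made throughout the cell cycle and placed by the chaperones HIRA and DAXX-ATRX, where nucleosomes turn over during transcription and at repeats. H2A.Z replaces histone H2A in the nucleosomes that flank the start of many genes and is exchanged by the SRCAP and p400-TIP60 complexes. Nucleosomes holding both variants are known to be unstable and to occur at starts of active genes. H3K79me2 is written by DOT1L over the first part of transcribed genes, so it is read as a mark of transcription. H4K16ac is written mainly by KAT8 and loosens the packing of nucleosomes.

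The promoters below are those of the genes with the strongest peaks of each class, in the window from 250 bases before to 50 after the RefSeq start (assembly GRCh38.p14, the same as hg38). They are shown because the classes differed in CpG content, and capitals mark CpG pairs. Each is written in the direction of its gene. H3.3 alone lay at TAS1R3 (chr1:1331030-1331329, plus strand), MSH4 (chr1:75796632-75796931, plus strand) and HOXA6 (chr7:27147725-27148024, minus strand).
TAS1R3: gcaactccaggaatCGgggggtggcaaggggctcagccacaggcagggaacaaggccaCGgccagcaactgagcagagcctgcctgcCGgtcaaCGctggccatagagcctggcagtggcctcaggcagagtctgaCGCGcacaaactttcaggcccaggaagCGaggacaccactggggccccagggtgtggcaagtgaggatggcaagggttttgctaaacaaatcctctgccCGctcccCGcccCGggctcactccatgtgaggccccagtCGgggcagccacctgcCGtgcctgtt
MSH4: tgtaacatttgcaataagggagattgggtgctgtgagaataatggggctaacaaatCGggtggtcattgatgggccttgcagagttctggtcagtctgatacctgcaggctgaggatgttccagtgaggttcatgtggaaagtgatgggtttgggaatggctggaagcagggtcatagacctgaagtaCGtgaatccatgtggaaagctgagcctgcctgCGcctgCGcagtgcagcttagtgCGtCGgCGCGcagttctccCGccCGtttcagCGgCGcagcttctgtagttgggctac
HOXA6: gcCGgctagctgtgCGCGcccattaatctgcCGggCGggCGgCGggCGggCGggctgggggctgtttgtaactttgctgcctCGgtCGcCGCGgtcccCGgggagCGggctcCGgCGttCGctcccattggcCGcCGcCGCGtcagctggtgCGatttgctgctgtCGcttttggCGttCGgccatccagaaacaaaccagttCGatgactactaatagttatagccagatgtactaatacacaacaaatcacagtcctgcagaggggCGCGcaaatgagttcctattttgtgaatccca
H2A.Z alone lay at KIF14 (chr1:200620702-200621001, minus strand) and PIGC (chr1:172444020-172444319, minus strand).
KIF14: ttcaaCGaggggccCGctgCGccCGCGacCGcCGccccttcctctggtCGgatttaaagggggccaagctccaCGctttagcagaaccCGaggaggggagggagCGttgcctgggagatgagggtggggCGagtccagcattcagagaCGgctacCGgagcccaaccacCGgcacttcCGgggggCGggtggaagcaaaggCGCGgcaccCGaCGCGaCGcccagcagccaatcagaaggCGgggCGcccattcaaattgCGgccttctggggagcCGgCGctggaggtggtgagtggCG
PIGC: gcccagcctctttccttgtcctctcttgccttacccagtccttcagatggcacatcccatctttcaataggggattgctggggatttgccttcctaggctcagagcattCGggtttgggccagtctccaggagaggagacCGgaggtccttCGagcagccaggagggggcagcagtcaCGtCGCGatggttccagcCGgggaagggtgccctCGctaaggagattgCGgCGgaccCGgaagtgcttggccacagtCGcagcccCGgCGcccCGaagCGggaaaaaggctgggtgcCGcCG
Both variants lay at DHPS (chr19:12681321-12681620, minus strand), which had the strongest H3.3 peak of that class, and at ELP2 (chr18:36129649-36129948, plus strand), which had the strongest H2A.Z peak.
DHPS: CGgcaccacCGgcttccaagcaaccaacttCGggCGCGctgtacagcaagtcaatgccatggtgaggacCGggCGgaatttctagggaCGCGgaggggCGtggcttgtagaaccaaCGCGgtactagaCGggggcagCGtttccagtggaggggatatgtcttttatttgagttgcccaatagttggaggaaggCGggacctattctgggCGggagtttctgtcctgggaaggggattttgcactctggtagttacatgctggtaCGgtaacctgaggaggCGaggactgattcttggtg
ELP2: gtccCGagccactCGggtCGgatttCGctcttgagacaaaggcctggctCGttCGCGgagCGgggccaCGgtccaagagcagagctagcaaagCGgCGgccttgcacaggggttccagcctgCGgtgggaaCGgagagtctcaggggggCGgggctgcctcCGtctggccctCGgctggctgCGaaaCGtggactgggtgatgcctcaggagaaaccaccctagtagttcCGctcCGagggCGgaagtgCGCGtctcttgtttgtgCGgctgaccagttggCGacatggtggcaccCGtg

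The peaks sat on these windows in different ways. At TAS1R3 a broad H3.3 peak of 4473 bp covered all 300 bases, but its summit lay outside the window, at -1528 bp from the start (negative before the gene). At MSH4 the H3.3 summit lay 302 bp inside the gene, and its 597 bp peak covered 163 bases of the window. At HOXA6 the H3.3 peak nearest the start reached only 20 bases of the window, and the strongest one lay at the other end of the gene, towards HOXA5. The consensus H2A.Z peaks had their summits 117 bp inside KIF14 and 161 bp inside PIGC. In DHPS the H3.3 summit lay at 182 bp and that of H2A.Z at 138 bp. ELP2 shares its peaks with SLC39A6, which starts on the opposite strand. The windows held 12 CpG pairs in TAS1R3, 12 in MSH4, 29 in HOXA6, 29 in KIF14, 18 in PIGC, 18 in DHPS and 26 in ELP2.

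In the full lists H2A.Z peaks more often carried H3.3 than the reverse, and the gap was widest at gene stops and inside genes. Of the consensus H2A.Z peaks 64.5% (64.0 to 65.0) overlapped an H3.3 peak by at least 1 bp, and of the H3.3 peaks 34.7% (34.4 to 35.1) overlapped consensus H2A.Z. With each list limited to its 20000 strongest peaks the shares were 49.2% and 44.8%. At annotated gene starts the direction was turned, with H3.3 on 71.5% (70.8 to 72.2) of 14777 H2A.Z peaks and H2A.Z on 82.7% (82.0 to 83.3) of 12975 H3.3 peaks. At gene stops the order was again that of the full lists: 438 of 588 H2A.Z peaks carried H3.3, or 74.5%, and 452 of 3412 H3.3 peaks carried H2A.Z, or 13.2%. Elsewhere in coding genes the values were 66.1% of 9518 and 17.4% of 37772. The list of H3.3 is the longer one, and how many peaks a list holds sets how often the other list can be met.

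Overlap went with peak strength in both lists. From the weakest to the strongest quartile of H3.3 peaks by the authors' −log10 q, 17.1%, 24.4%, 35.4% and 62.0% lay on consensus H2A.Z. For the H2A.Z peaks 48.5%, 53.4%, 70.0% and 86.2% lay on H3.3. Peaks of either variant without the other were thus mostly weak and narrow. The 13468 H2A.Z peaks without H3.3 had a median width of 292 bp and a median −log10 q of 11.4, and the 24502 with H3.3 had 451 bp and 22.96.

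The marks split the same way among peaks. Neither H4K16ac nor H3K79me2 overlapped 61.4% of H2A.Z peaks without H3.3, against 19.1% of those with it. H4K16ac lay on 21.3% and 62.9% of them in the same order, and H3K79me2 on 22.7% and 54.2%. Among H3.3 peaks the acetylation was alike with and without H2A.Z. It lay on 62.2% of the 25109 with consensus H2A.Z and on 59.4% of the 40556 that met no peak of either H2A.Z antibody, of which 69.7% lay in gene bodies away from the ends. H3K79me2 lay on 53.4% and 25.7%.

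Most genes carried both variants, and they carried them at the start. Of all 19451 genes 64.5% had H3.3 at an end, 67.6% had consensus H2A.Z and 58.8% had both. Strand was known for 9310 of the genes with both, and both variants lay at the start in 95.6% (95.1 to 96.0) of these. Their summits had similar median positions: the H3.3 summit lay a median of 157 bp (151 to 163) inside the gene and the H2A.Z summit 117 bp (113 to 121). Over the 8896 genes with both at the start, the median distance between the summits was 78 bp regardless of direction, 58.3% of the pairs lay within 150 bp and 24.7% lay more than 500 bp apart. For scale, the summits of the Abcam and consensus H2A.Z peaks lay a median of 32 bp apart, with 76.7% within 150 bp and 10.5% beyond 500 bp. H3K79me2 peaked further in, at a median of 349 bp.

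**Figure D1:**
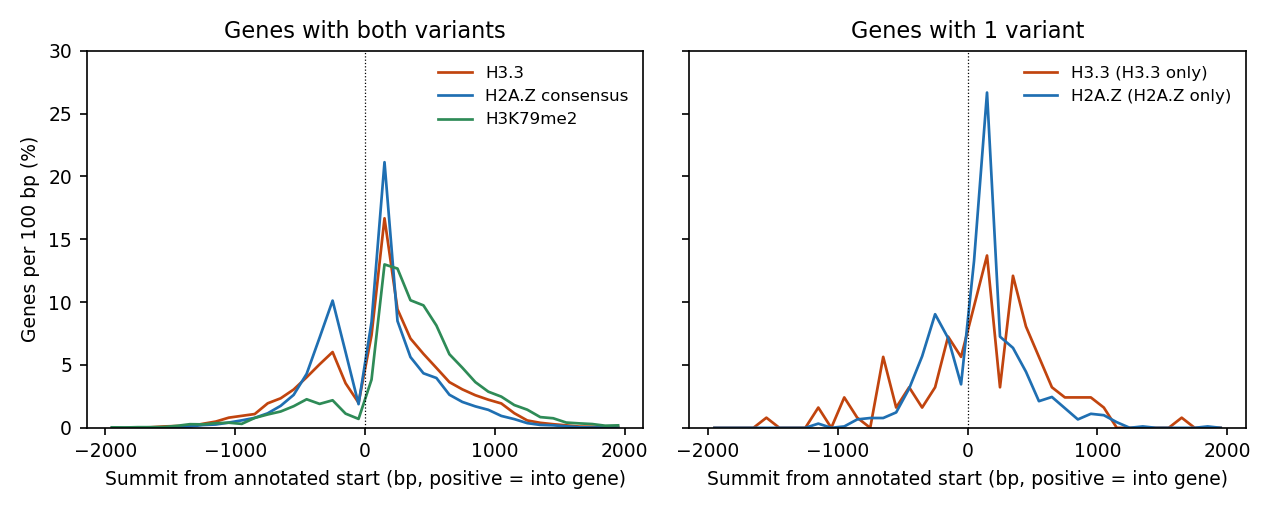
Position of the strongest peak summit at each annotated start, in bp (x axis, positive into the gene), as the percentage of genes per 100 bp (y axis); the left panel shows genes with both variants and the right panel genes with 1 variant, where lines are the lists named. H3.3 and H2A.Z share a main peak just inside the start and a smaller one before it, and the H2A.Z of H2A.Z-only genes is the most concentrated, with 86.5% of summits within 500 bp.

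The stops of genes carried H3.3 far more often than H2A.Z. Among the 9310 genes with both variants, H3.3 lay at the stop of 30.4% (29.5 to 31.4) and consensus H2A.Z at that of 10.1% (9.45 to 10.7). H3.3 at both ends with H2A.Z at the start alone occurred in 19.8% of them, and the reverse in 0.741%. A stop can lie near the start of a neighbouring gene. In the 1532 genes with both variants and no other annotated gene within 5 kb, H3.3 lay at 17.8% of stops and H2A.Z at 5.35%. The variants lay at opposite ends only in 154 genes.

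The strongest sites of the shared class included genes that most cells use and a few of narrower expression. DHPS, which makes the hypusine of translation factor eIF5A, had −log10 q of 245.6 for H3.3, 64.8 for H2A.Z CST, 210.2 for H2A.Z Abcam, 32.2 for H4K16ac and 38.8 for H3K79me2. It was the highest H3.3 peak at any gene end. The peak next in rank, 219.8, served MYL11, SEPTIN1 and ZNF48 together. PKN2, a kinase, USP1, a deubiquitinase of DNA repair, and the pair UCHL5 and RO60 followed at 215.6, 213.6 and 212.4. By H2A.Z the class was led by the pair SLC39A6, a zinc transporter gene, and ELP2, a subunit of Elongator, with a CST value of 218.1 and an H3.3 value of 122.5. ZNF557, WNT3A, the pair KIAA0319L and NCDN, and KAT5 came next with 214.7, 214.4, 200.3 and 196.3. KAT5 encodes the acetyltransferase of the TIP60 complex, which itself exchanges H2A.Z. WNT3A, a secreted growth factor gene, had both variants and H4K16ac but no H3K79me2 peak at an end. Values of different lists are not on a common scale, and only ranks within a list are meaningful.

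The H3.3-only class was small, at 0.972% of genes (0.839 to 1.12), and mostly weak. Its median −log10 q at an end was 10.3, against 24.8 in the genes with both. The top of the class mixed genes with and without H3K79me2. Its strongest peak, 86.3, lay at the ends of both HOXA5 and HOXA6, transcription factor genes of body patterning (chr7:27141052-27143681 and chr7:27145396-27147774). Both genes lay wholly inside 1 H3K79me2 domain with a −log10 q of 751.4, and HOXA6 also had H4K16ac at 6.17. TAS1R3, the shared subunit of the sweet and umami taste receptors (chr1:1331280-1335314), had H3.3 at 73.3, H4K16ac at 19.1 and H3K79me2 at 3.86. MSH4, which acts in meiotic crossing over (chr1:75796882-75913242), had 73.1, 11.5 and 8.35.

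Below them stood EPN1, an endocytic adaptor gene, with H3.3 at 72.2 and H3K79me2 at 296.2, and DNASE1L2, a nuclease gene, with 70.1 and 6.16. MCCD1 had H3.3 at 67.0 and neither mark. NPM1, which encodes the abundant nucleolar protein nucleophosmin (chr5:171387116-171410900), had H3.3 at 66.4, H4K16ac at 16.1 and H3K79me2 at 741.8, which covered 86.6% of the gene, and its nearest H2A.Z peak lay 8010 bp away. LOC124900172 had 51.3 with H3K79me2 at 521.9, whereas CCDC17 at 47.7 and ACP4 at 46.1 had H4K16ac only. The strong peaks of the class thus came with several states. They were strong H3K79me2 with or without H4K16ac, H4K16ac with weak H3K79me2, H4K16ac alone, and neither mark. Other members with H3K79me2 over much of the gene were CPSF6, a factor of mRNA 3′ processing, at 45.3% of its length, and RPL37A, a ribosomal protein gene, at 60.7%. Of the 186 distinct strongest peaks of the class, 37 also lay at an end of a gene outside the class.

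The H2A.Z-only class was larger, at 5.95% of genes (5.62 to 6.30), and its peaks were also weaker than those of genes with both. The median −log10 q of consensus H2A.Z at an end was 21.3, against 38.8 in the genes with both. KIF14, a kinesin gene of cytokinesis (chr1:200551497-200620751), led it with CST at 144.7, Abcam at 389.7, H4K16ac at 20.4 and H3K79me2 at 361.5. PIGC, of glycolipid anchor synthesis (chr1:172441457-172444069), followed with 122.6, 364.6, 34.4 and 424.2. Both had strong H3K79me2 and no H3.3 peak in the gene or within 5 kb. SAMD12 had CST at 109.8 and Abcam at 246.6 with H4K16ac at 15.7 and no H3K79me2.

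Most of the other strong members carried H3K79me2. They were MKNK1, a kinase of translation control (CST 102.4), FAM234B (101.7), ZNF619 (99.7), the pair TCTN3 and ENTPD1 on 1 peak (98.9), PDK4, a kinase that restrains pyruvate dehydrogenase (94.8), and CWC22, a splicing factor gene (93.5). Of these 7 genes, all but PDK4 had H3K79me2 at an end. The longest stretches of H3K79me2 in the class lay over CTNNB1, which encodes beta-catenin, with 60.6% of the gene covered, TBCA, a tubulin folding cofactor gene, with 37.7%, and UBE3A, a ubiquitin ligase gene, with 26.8%. CTNNB1 had H2A.Z CST at 29.7, Abcam at 121.0, H4K16ac at 21.4 and H3K79me2 at 450.4.

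The marks of the single-variant classes were opposed. H4K16ac lay at an end of 137 of 189 H3.3-only genes, or 72.5% (65.5 to 78.7), and of 320 of 1158 H2A.Z-only genes, or 27.6% (25.1 to 30.3). The share among all genes was 55% and that in the genes with both variants 78.0%. H3K79me2 lay at 39 H3.3-only genes, or 20.6% (15.1 to 27.1), and at 614 H2A.Z-only genes, or 53.02% (50.1 to 55.9), with 55.4% of all genes and 82.0% of those with both. H4K16ac without H3K79me2 was the commonest state of H3.3-only genes, in 57.1%, and was found in 12.8% of H2A.Z-only genes. H3K79me2 without H4K16ac was found in 5.29% and 38.2%. Neither mark lay at 22.2% of H3.3-only genes, at 34.2% of H2A.Z-only genes and at 4.82% of those with both. The difference of H2A.Z-only minus H3.3-only genes was 32.4 percentage points (25.4 to 38.3) for H3K79me2 and -44.9 (-51.2 to -37.6) for H4K16ac. The first was only 9.90 points (3.99 to 15.98) when each list was limited to its 20000 strongest peaks, where H3K79me2 lay at 56.8% of the then 280 H3.3-only genes and 66.7% of the then 3086 H2A.Z-only genes.

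The contrast was also present within classes of gene length. In genes of 1 to 5 kb H4K16ac lay at 77.9% of H3.3-only and 35.1% of H2A.Z-only genes, and H3K79me2 at 26.7% and 40.4%, with intervals that overlap for the latter. At 5 to 20 kb the values were 74.2% and 29.5% for H4K16ac and 15.2% and 51.5% for H3K79me2. At 20 to 100 kb they were 59.4% and 27.6%, and 15.6% and 64.6%. Above 100 kb only 5 H3.3-only genes remained.

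**Figure D2:**
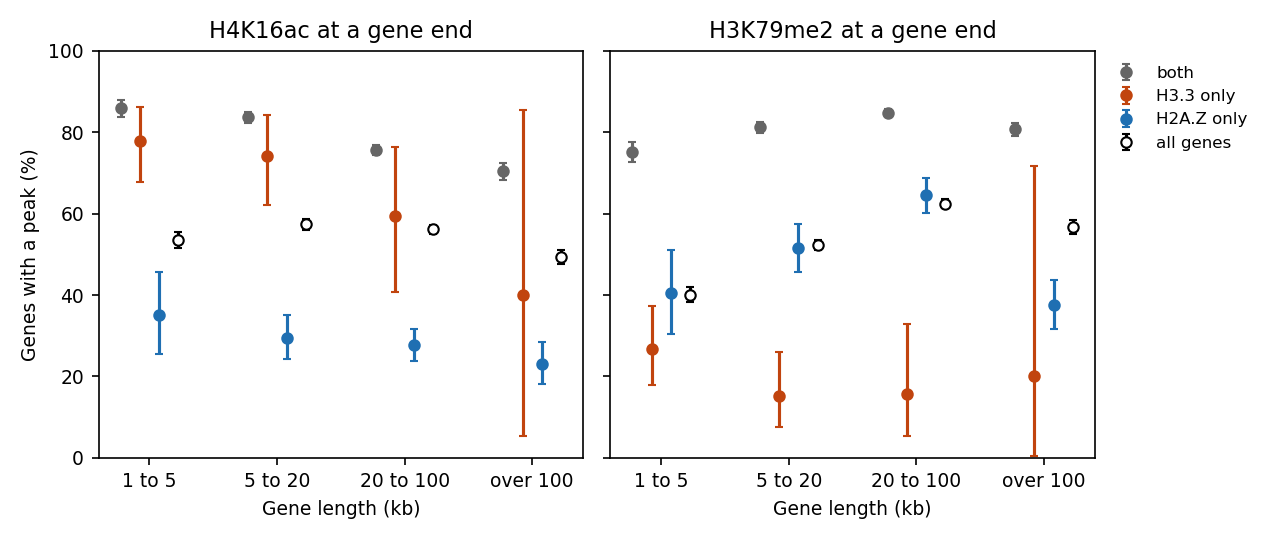
Percentage of genes with an H4K16ac peak (left) or an H3K79me2 peak (right) within 1 kb of an end (y axis) by gene length in kb (x axis), for the 3 classes and all genes; points are shares and bars exact 95% intervals for counting error. H3.3-only genes lie above H2A.Z-only genes for H4K16ac and below them for H3K79me2 in every length class, with only 5 H3.3-only genes over 100 kb.

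Above rising thresholds of peak strength H3K79me2 became more frequent in each class. H4K16ac did so in H2A.Z-only genes and in genes with both, but not throughout in H3.3-only genes. Among the 42 H3.3-only genes with a −log10 q of at least 20, H3K79me2 lay at 47.6% (32.0 to 63.6) and H4K16ac at 90.5%. Among the 9 with at least 50, H3K79me2 lay at 8, or 88.9%, and H4K16ac at 77.8% (40.0 to 97.2). Among the 127 H2A.Z-only genes with at least 50, H3K79me2 lay at 74.0% and H4K16ac at 53.5%. Genes with both variants had more H3K79me2 than single-variant genes of the same quartile of peak strength, and the gap was smallest in the highest quartile of each variant. In the lowest quartile of genes by H3.3 peak strength H3K79me2 lay at 9.60% of 125 H3.3-only genes and at 68.0% of 2779 genes with both, while H4K16ac lay at 63.2% and 62.6%. In the lowest quartile by H2A.Z peak strength H3K79me2 lay at 39.1% of 603 H2A.Z-only genes and 70.0% of 2547 with both, and H4K16ac at 19.6% and 70.2%. In the highest quartiles H3K79me2 lay at 72.7% (39.0 to 94.0) of 11 H3.3-only genes and 92.8% of 2899 with both, an interval that includes the other value, and at 73.9% of 88 H2A.Z-only genes and 87.4% of 3062 with both. H4K16ac showed no fixed order by H3.3 strength. In the next-to-lowest quartile it lay at 93.9% (79.8 to 99.3) of 33 H3.3-only genes and 75.5% of those with both, and in the highest at 81.8% and 89.9%. By H2A.Z strength it was lower in H2A.Z-only genes in every quartile, with 59.1% and 85.9% in the highest.

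H3.3-only genes were short and H2A.Z-only genes long. The median length was 5798 bp (4737 to 7340) in the H3.3-only class and 35725 bp (31862 to 39463) in the H2A.Z-only class, against 29103 bp in genes with both, 11411 bp in genes with neither and 25553 bp in all. Of the H3.3-only genes 45.5% were shorter than 5 kb, of the H2A.Z-only genes 8.12%, and of all genes 13.6%. The rule bears on length, since a longer gene leaves more room for a peak that removes it from a class. With the gene body not looked at, the medians were 8729 and 41561 bp, and among genes with no other gene within 5 kb they were 10601.5 and 29856 bp. The longest H3.3-only genes were BANK1, a B cell scaffold gene of 284083 bp, ADAM32 of 177389 bp and SLC7A14 of 126528 bp, all without H3K79me2. The longest H2A.Z-only genes, AGBL4, CNTN5 and LINGO2, exceeded 1 Mb and also lacked H3K79me2 at an end.

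**Figure D3:**
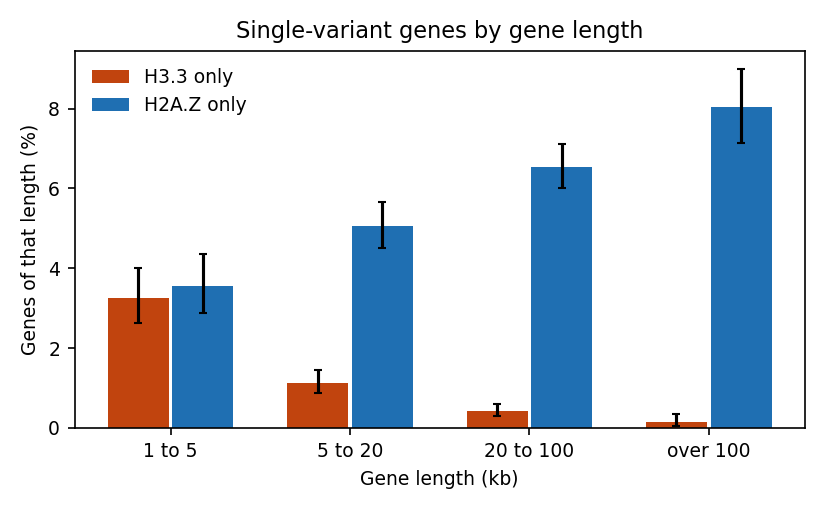
Share of all protein-coding genes of each length, in kb (x axis), that were H3.3 only or H2A.Z only (y axis, percent); bars are shares and whiskers exact 95% intervals for counting error. From the shortest to the longest genes the H3.3-only share goes from 3.26% to 0.149% and the H2A.Z-only share from 3.56% to 8.03%.

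The classes also lay in different surroundings. H3.3-only genes had a median of 19 other coding genes within 500 kb, H2A.Z-only genes 8 and all genes 12. The nearest H2A.Z peak of either antibody lay a median of 13681 bp from an H3.3-only gene, whereas the nearest H3.3 peak lay 49179 bp from an H2A.Z-only gene and beyond 50 kb for 49.3% of them. H2A.Z-only genes were thus further from the missing variant. With the absence asked over 10 kb the H3.3-only class shrank to 116 genes and the H2A.Z-only class to 1039. By chromosome the H2A.Z-only share ran from 1.58% on chromosome 22 to 9.33% on chromosome 18, with 8.74% on X. The share with both variants was 70.2% on chromosome 22 and 40.3% on X.

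The single-variant promoters had about the GC content of all promoters, whose median was 63%, and those with both variants had 66.7%. H3.3-only promoters held the fewest CpG pairs of the 3 classes. Of the genes with strand, a RefSeq promoter window matched 8834 with both variants, 141 H3.3-only and 896 H2A.Z-only genes, within 14141 in all. The median number of CpG pairs in 300 bases was 28 in genes with both, 22 (21 to 23) in H2A.Z-only, 16 (12 to 19) in H3.3-only and 3 in genes with neither variant. Over all promoters it was 23. The GC content of H3.3-only and H2A.Z-only promoters was close, 63% and 61.3%, so the gap lay in CpG pairs rather than in GC. At least 15 pairs were held by 88.0%, 73.2% and 52.5% of the promoters with both, H2A.Z only and H3.3 only. Of all promoters 68.1% held as many. CpG-rich promoters did not all carry H3K79me2: of those with at least 15 pairs it lay at 87.5% with both variants, 67.2% with H2A.Z only and 20.3% (11.8 to 31.2) with H3.3 only. Over all genes with such promoters it lay at 79.5%.

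**Figure D4:**
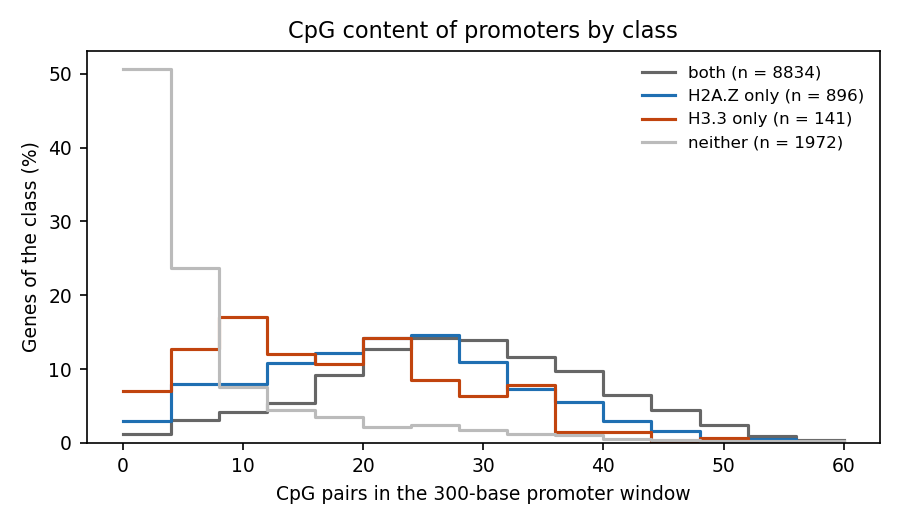
Number of CpG pairs in the 300-base promoter window (x axis, in steps of 4, the last step holding all higher values) against the percentage of genes of each class (y axis), with 1 line per class. H3.3-only promoters have a median of 16, between the genes with neither variant at 3 and those with both at 28.

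Short motifs were searched on both strands of these windows. CCGGAAG, the core of sites for ETS factors, was in 19.1% of promoters with both variants, 19.6% (17.1 to 22.4) of H2A.Z-only and 5.67% (2.48 to 10.9) of H3.3-only promoters, and in 15.0% of all. The motif of NRF1, a regulator of mitochondrial genes, was in 12.2%, 10.0% and 5.67%, with 9.07% of all. PIGC and KIF14 hold the first of these motifs and MSH4 the second. The GC box GGGCGG was in 74.7%, 62.2% and 54.6%, with 60.3% of all. TATAAA, the TATA box, went the other way, with 4.95%, 6.70% and 12.1% (7.18 to 18.6), and 8.94% of all. The CCAAT box, the E-box CACGTG and the cyclic AMP response element were within 7 percentage points between these classes. All of these motifs other than the TATA and CCAAT boxes themselves hold CpG pairs, and a match is a string in the window and not a bound site.

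Gene functions differed between the single-variant classes. Among 43 gene lists the H3.3-only share was highest in the muscle genes, with 2 of 18, and the HOX genes, with 4 of 39. All 39 HOX genes had H3.3 at an end, against 64.5% of all genes. H3K79me2 lay at 36 of them and consensus H2A.Z at 15, where the shares of all genes were 55.4% and 67.6%. HOXA5, HOXA6, HOXD10 and HOXB1 were H3.3 only, which is 10.3% of the list against 0.972% of genes. The 20 others, or 51.3%, had H3.3 at an end and H2A.Z within 5 kb but no consensus peak at an end. Of all genes 4.72% were in that state. HOXD10 had H3.3 at 39.3 and H3K79me2 at 569.4 over 85.7% of the gene. HOXB1 had H3.3 at 16.1, H4K16ac at 9.22 and no H3K79me2. The HOX genes share domains and peaks, so they are not independent of each other. None of the 39 was H2A.Z only.

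Some other H3.3-only members belonged to lists of tissue-specific genes, and those named next had no H3K79me2. They were ACTA1, the skeletal muscle actin gene, with H3.3 at 27.7 and H4K16ac at 8.16, MYF5, a muscle regulator, with 7.47 and 4.18, GATA1, a red cell regulator, with 11.6 and 10.6, and LAT, a T cell adaptor gene, with 6.64 and 15.7. COX7A1, the muscle form of a cytochrome oxidase subunit, had 18.9 and 13.0. SOX17, an endoderm factor gene, had H3.3 at 15.7 and neither mark. Of the 18 muscle genes 2 were H3.3 only, of 41 SOX, GATA and T-box genes 2, of 29 blood cell genes 1 and of 81 cytosolic ribosomal protein genes 1. None was H3.3 only among 239 olfactory receptor, 95 potassium channel, 90 interleukin and chemokine, 55 keratin, 30 neuronal, 24 kidney and 18 liver genes. The share of all genes was 0.972%, so a lack of members in lists of this size does not set them apart. The few members of the lists before them are likewise too few to rank those lists. RPL37A was the ribosomal member, with H3.3 at 10.7 and H3K79me2 at 130.1.

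Germ cell genes were noticed among the H3.3-only genes. The list of 74 germ cell and meiosis genes was therefore drawn up after values were seen and partly from the class. Its counts only describe it and cannot show that such genes are more frequent in the class. Of these genes 15 were H3.3 only, 24 had both variants, 1 was H2A.Z only (SPO11) and 10 had neither. The shares of all genes were 0.972%, 58.8%, 5.95% and 15.1% in the same order. Only 1 of the 15 had H3K79me2 at an end, which was MSH4 at 8.35, and 10 had H4K16ac. DAZL, an RNA-binding regulator of germ cells, had H3.3 at 30.4 and H4K16ac at 9.00. BOLL, of the same family, had 26.0 and 6.96, PRDM14, a regulator of primordial germ cells, 24.6 and 7.45, and TSSK2, a kinase of sperm, 22.2 and 10.3. SYCP3, of the axis of meiotic chromosomes, had 9.07 and 8.79. Promoters of the 12 with a window held a median of 24 CpG pairs, above the 16 of the class.

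The H2A.Z-only class held many zinc finger genes. Of 508 ZNF genes, many of which encode repressors that act on transposons, 89 were H2A.Z only, or 17.5% against 5.95% of genes, and 3 were H3.3 only. Of the 246 on chromosome 19 the H2A.Z-only genes numbered 58, or 23.6%. Consensus H2A.Z lay at 382 of the 508 and H3.3 at 297, where all genes have 67.6% and 64.5%. Among the 89, H3K79me2 lay at 64.0% and H4K16ac at 33.7%, against 91.8% and 76.9% of the 281 ZNF genes with both variants. ZNF32 had CST at 75.3, Abcam at 128.0 and H3K79me2 at 18.7, ZNF850 had 72.3, 83.0 and 41.2, and ZNF234 had 68.1, 185.5 and 37.5. ZNF genes of a cluster resemble each other in sequence, and the handling of reads that match several of them was not stated.

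Genes of cell division, mitochondria and the proteasome were among the other lists above the 5.95% of all genes that were H2A.Z only. Most members of these lists carried both variants, which lay at 58.8% of all genes. The shares with both were 82.4% for mitosis and 78.6% for replication and repair genes. They were 77% for mitochondrial ribosomal protein, 74.4% for oxidative phosphorylation and 71.8% for proteasome subunit genes. Of 34 mitosis genes 6 were H2A.Z only, or 17.6%, and none H3.3 only. All 34 had consensus H2A.Z and H3K79me2 at an end, against 67.6% and 55.4% of all genes. MKI67, the proliferation marker, had CST at 31.9, Abcam at 106.4 and H3K79me2 at 673.9, BUB1B, of the spindle checkpoint, had 32.4, 66.6 and 126.7, and CENPE, a kinetochore motor, had 28.9, 71.9 and 57.4. The mitochondrial ribosomal protein genes had 10 of 74, or 13.5%, the replication and repair genes 5 of 42, or 11.9%, the oxidative phosphorylation genes 9 of 82, or 11.0%, and the proteasome subunit genes 4 of 39, or 10.3%. Examples are MRPL32, which shares a peak with the proteasome gene PSMA2, RFC5 of the clamp loader with CST at 25.4, and ATP5F1C of the ATP synthase with H3K79me2 at 562.7. These members had H3K79me2, unlike most H3.3-only genes. The counts behind the lower shares are small, and other lists reached similar ones. H2A.Z only were 5 of 44 collagen genes, or 11.4%, and 4 of 38 aminoacyl-tRNA synthetase genes, or 10.5%. VPS72, which encodes the H2A.Z-binding subunit of the SRCAP complex, was itself H2A.Z only, with CST at 43.4 and H3K79me2 at 86.1, as was BRD8 of the TIP60 complex with 17.6 and 62.6. Of the 22 genes listed for H2A.Z and its exchange, 2, or 9.09%, were H2A.Z only and 19 had both variants.

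H2A.Z alone also marked genes with no H3K79me2. The nuclear receptor genes PGR and RXRG had CST at 12.2 and 25.05 and Abcam at 73.1 and 106.8, with neither mark. The chemokine gene CXCL1 had 62.6 and 336.3 with H4K16ac at 11.4. CD34, of blood stem cells, had 35.2 and 157.8, MAP2, of neurons, 49.0 and 87.6, and the potassium channel gene KCND2 20.7 and 98.3, all 3 with neither mark. These are single genes. H2A.Z only were 6.9% of 29 blood cell, 3.33% of 30 neuronal and 7.37% of 95 potassium channel genes, against 5.95% of all genes. Of 90 interleukin and chemokine genes 7.78% were, and of 48 nuclear receptor genes 8.33%. HLA-B, of antigen presentation, had 46.1 and 197.3 with H3K79me2 at 48.0, and 4 of 23 HLA and antigen presentation genes were in the class. Other lists near or below the background were the solute carriers with 22 of 380, or 5.79%, the olfactory receptors with 3 of 239, and the homeobox genes outside the HOX clusters, the Polycomb genes and the cholesterol genes with none of 58, 30 and 25. Of the 239 olfactory receptor genes 221, or 92.5%, had neither variant within 5 kb, against 15.1% of all genes.

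**Figure D5:**
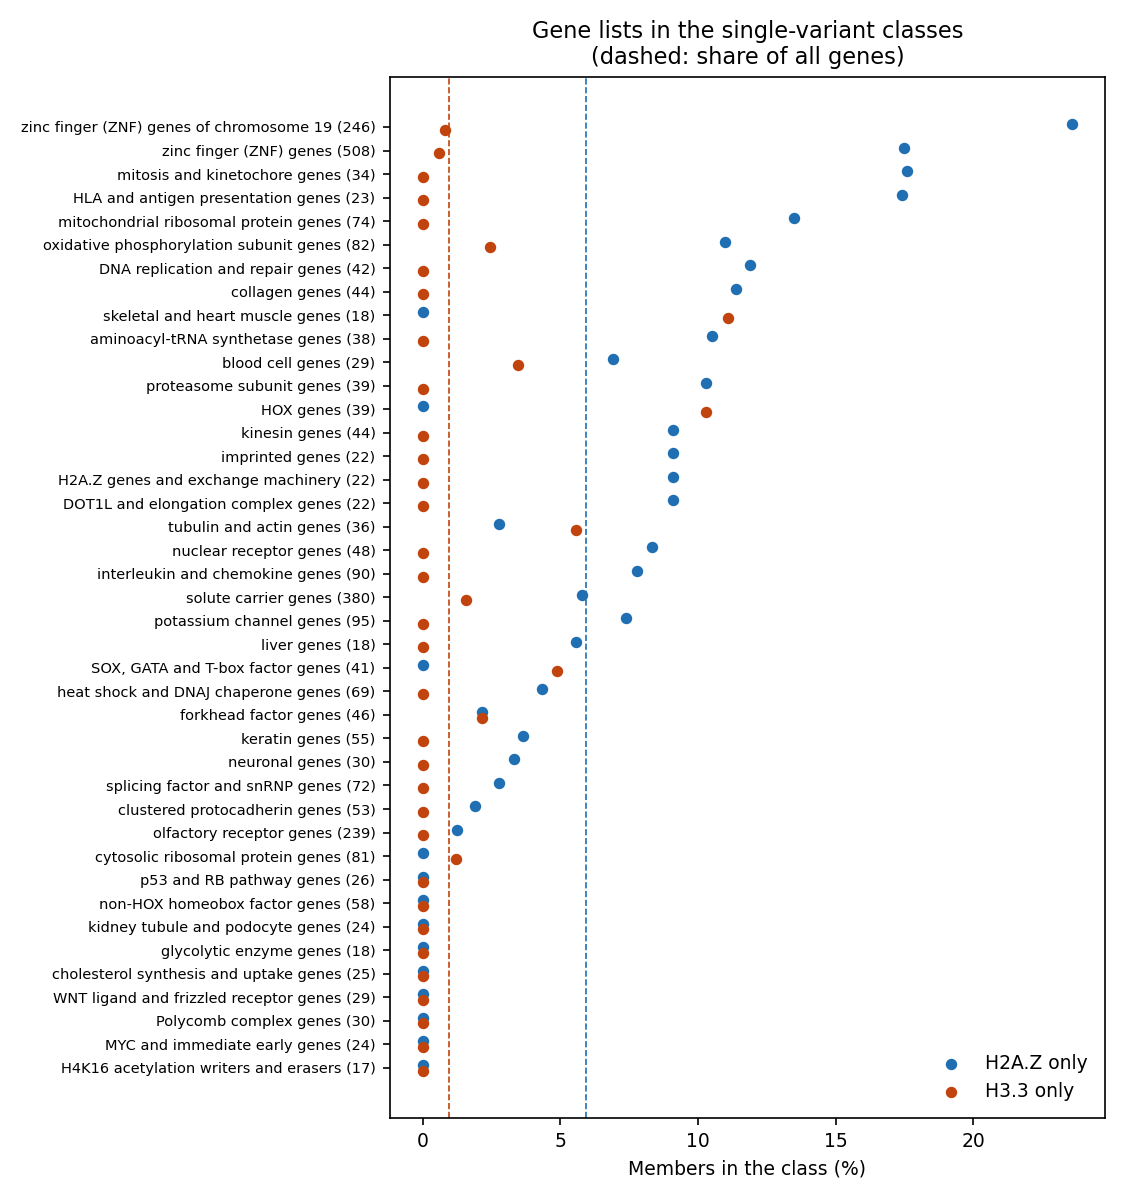
Percentage of the members of each gene list (number of genes in brackets) that were H3.3 only (orange) or H2A.Z only (blue), for the lists of at least 17 genes other than the germ cell list, which was drawn up after values were seen; points are shares and dashed lines the shares of all genes, 0.972% and 5.95%. Zinc finger, mitosis and HLA genes lie furthest right for H2A.Z only among the lists shown. For H3.3 only these are muscle genes, with 2 of 18 members, and HOX genes, with 4 of 39, which are too few to rank the lists.

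The threshold of 5 kb split genes with similar peaks. SYNE4 and ERAS were just inside the H3.3-only class with the nearest H2A.Z peak at 5040 and 5106 bp, and PTPRCAP and TREX1 were left out at 4995 and 4984 bp although their H3.3 values, 49.5 and 37.8, were higher than most in the class. NELFE and CLP1 were just inside the H2A.Z-only class at 5104 and 5113 bp, and BTBD7 and SNX27 were left out at 4984 and 4923 bp. Among the 3723 genes between the classes, 918 had H3.3 at an end and H2A.Z within 5 kb but no consensus peak at an end. Of these, 500 had a peak of 1 H2A.Z antibody at an end, and 552 further genes had consensus H2A.Z at an end with H3.3 nearby but not at an end.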

How the data were processed

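ChIP-seq peak lists of 5 libraries from HEK293T cells were used, with 1 library per antibody. MACS2 2.1.0, Bowtie 1.1.2, Trimmomatic 0.33 and bcl2fastq 2.17 are named, with build hg38, per the submitters' processing notes. Not given in the sources used here were settings, the handling of duplicate and multiply matching reads, use of the input, and read depth. The deposited lists give each peak's position and summit, the authors' fold enrichment (a linear ratio), the authors' −log10 p and −log10 q and the authors' integer score, which was not used. The fold and −log10 q served only to rank, describe or filter peaks within a list.

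Peaks on chromosomes 1 to 22 and X were joined by overlap to 19451 protein-coding genes of the RefSeq table (GRCh38.p14, the assembly of hg38) in Python 3.11.15 with numpy 2.4.6, pandas 2.3.3 and scipy 1.17.1. Absence was asked over the gene and 5 kb on either side. Strand came from the RefSeq promoter table for 15412 genes, and exons and UTRs were not analysed here. The class rule was tested on simulated data. Intervals are Clopper-Pearson for shares, Newcombe for differences and order-statistic for medians, at 95%.

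The classes, gene lists and named-gene rule were chosen with earlier results of these data known, and the germ cell list after the classes were seen. The rule names the strongest 10 of each single-variant class, 5 genes with both variants by each variant, the 3 longest, the 3 with most H3K79me2, up to 3 per gene list, and those nearest the 5 kb limit. Some genes that the rule names are not reported here. PRDM14, TSSK2, SYCP3 and HOXB1 were named after their values were seen. The histone list holds only 8 genes of at least 1 kb, the interleukin list includes receptors, and the splicing list includes copies of HNRNP genes.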

Additional observations from a re-analysis of the deposited data

How the results depend on the processing

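No paired analysis was possible because each antibody has 1 library, so the groups share fewer than 2 replicate numbers, and for the same reason no replicate could be left out. Every alternative was planned, and neither mark difference changed sign in any. Limited to the 20000 strongest peaks of each list, genes with both variants numbered 6810 and H2A.Z-only genes 3086, the H3K79me2 difference was 9.90 points, the H4K16ac difference -32.9, and the median length of H3.3-only genes 8698.5 bp. Among genes with no other gene within 5 kb, the classes held 1928, 38 and 338 genes (both, H3.3 only, H2A.Z only), the H4K16ac difference was -33.3 points, and the median lengths were 10601.5 and 29856 bp; fewer genes were classed there by construction. H3.3-only genes numbered 116 with absence over 10 kb and 124 by gene start alone, where the H3K79me2 difference was 41.9 points. With the gene body not looked at, the median lengths were 8729 and 41561 bp, and with all CST peaks as H2A.Z that of H2A.Z-only genes was 30486 bp. H3.3 peaks lay on H2A.Z in 33.8% with 50% of the CST peak covered by Abcam, 38.6% with all CST peaks, 35.8% at −log10 q of at least 5, 44.8% for the 20000 strongest and 30.8% with 50% of the peak covered. H2A.Z peaks lay on H3.3 in 65.5%, 52.8%, 63.8%, 49.2% and 54.4% in the same order. The cause of these shifts was not tested. Read depth is not known, so an absent peak may lie below the detection of a library, and with 1 library per antibody the antibody, the library and the variant cannot be told apart.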
